A study of Equus caballus with 4 samples.

Results

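The genes described here are 10 members of NF-κB signalling and of the inflammatory output it controls, measured in differentiating equine satellite cells (ESC) given gamma-oryzanol (GO) and hydrogen peroxide (H2O2). They are the Rel subunits NFKB1 and RELA, the inhibitors NFKBIA and TNFAIP3, the cytokine IL6, the chemokines IL8 and CCL2, the prostaglandin enzyme PTGS2 and the adhesion molecules ICAM1 and VCAM1. Every gene probe whose gene name in the array annotation was exactly one of these symbols was taken. This gave 25 probes (29 spots) for 8 of the 10 names, out of 43603 gene probes with 24998 different gene names. No probe carried the name ICAM1 or VCAM1. Each of these genes had 1 probe under another name, found through the probe description (ICAM1) or under the name VCAM, and these 2 probes are described apart from the 25.

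ESC are the stem cells of skeletal muscle, here from m. semitendinosus of horses, at day 3 of differentiation. The treated cells received GO (ferulic acid esters of plant sterols and triterpene alcohols, a rice bran product) at 0.125 µM over 24 h, with 3 mM H2O2 present in the last 1 h, and the control cells received no GO. Whether H2O2 was given to the controls is not in the labels, while the study describes its controls as exposed to H2O2 and to the DMSO vehicle. On the study's account treated and control cells thus differed in GO alone. The words GO and H2O2 below name the treated group. According to the study, muscle was cut from several young stallions and a single primary cell line was then chosen for its viability and fusion, so that the cultures do not stand for different animals. Treated RNA (Cy5, red) and control RNA (Cy3, green) were hybridised together on 4 horse arrays of 1 slide. The labels number the treated cultures as biological replicates 1 to 4. The sample descriptions name the control of all 4 arrays as rep1, while the design text gives 4 control replicates, so whether the controls were separate cultures is not settled by the labels. No array had the dyes exchanged, so dye and treatment cannot be told apart.

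NF-κB is a family of dimeric transcription factors that are held inactive in the cytoplasm by IκB proteins. Signals from cytokine and Toll-like receptors activate the IκB kinase, IκB is degraded, and the freed dimers switch on genes for cytokines, chemokines, adhesion molecules and prostaglandin synthesis. Among the genes they switch on are their own inhibitors, which ends the response. In muscle the pathway is known for its activation in injury and wasting and for holding back myogenic differentiation.

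The probes were 60 bases long, and their sequences show what each measurement rests on. Positions are in the build EquCab1, as in the file headers, and exons and UTRs were not assigned. The first 6 probes below are printed because a single probe carried the result of its gene (NFKB1, RELA, TNFAIP3, IL6) or because the probe lay apart from an overlapping set of the same transcript (NFKBIA, CCL2). They lie at chr3:62066342-62066401 on the plus strand (NFKB1), chr12:16197788-16197936 on the minus strand (RELA), chr10:77854096-77854155 on the plus strand (TNFAIP3), chr4:53966444-53966503 on the plus strand (IL6), chr1:165894165-165894345 on the minus strand (NFKBIA) and chr11:37348878-37349314 on the minus strand (CCL2). All are written 5′ to 3′ as on the array.
NFKB1 A_69_P082741: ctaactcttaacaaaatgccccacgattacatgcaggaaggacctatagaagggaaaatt
RELA A_69_P011106: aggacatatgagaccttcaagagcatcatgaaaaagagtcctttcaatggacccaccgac
TNFAIP3 A_69_P050046: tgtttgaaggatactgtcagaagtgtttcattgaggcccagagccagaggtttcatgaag
IL6 A_69_P001261: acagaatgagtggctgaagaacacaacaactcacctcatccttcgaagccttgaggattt
NFKBIA A_69_P115931: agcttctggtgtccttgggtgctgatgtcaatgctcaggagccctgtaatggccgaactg
CCL2 A_69_P006396: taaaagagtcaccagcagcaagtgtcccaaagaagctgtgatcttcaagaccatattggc

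Some genes were also tiled: NFKBIA, CCL2 and IL8 each had 5 probes that start 1 base apart on the same transcript and have 56 of their 60 bases in common. The first and last of the IL8 set, at chr3:37422775-37423112 and chr3:37422771-37423108 on the plus strand, show this layout, with the shared bases in capitals.
IL8 A_69_P004851: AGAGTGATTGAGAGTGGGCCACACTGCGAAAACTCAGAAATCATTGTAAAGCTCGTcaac
IL8 A_69_P004855: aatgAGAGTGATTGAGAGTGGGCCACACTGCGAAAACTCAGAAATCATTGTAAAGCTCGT
Such probes bind the same stretch of RNA and are repeated readings of 1 target, not replicates of a gene.

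The cultures and arrays set limits on all values below. On the 4 arrays, 54.9% to 61.3% of gene spots were well above background in green and 56.7% to 61.4% in red, and 0 gene spots were saturated. The ratios of pairs of arrays correlated across all tested probes with Pearson's r from 0.174 to 0.697 (6 pairs, a description across probes that share slide and dyes). Of the 9 myogenic markers on the array, 8 were well above background on all 4 arrays and 5 were called higher with GO and H2O2. PAX7, a satellite cell marker named through its probe description, was not above background on any array. Among 7 fibroblast markers, 6 were above background on all arrays, with THY1 called higher and LUM called lower. Of 6 endothelial markers, 5 were never above background. Of 8 leukocyte markers measured, 5 were never above background (CD163, CD3E, CD79A, CSF1R, ITGAM). The other 3 were above it on all arrays. PTPRC, named through its probe description, was called higher (log2 ratios of 0.54, 0.56, 0.56 and 0.45 on arrays 1 to 4, adjusted p = 0.00632 by limma). CD14 was called lower (-0.26, -0.14, -0.14 and -0.15, adjusted p = 0.0385), and CD68 was not called (adjusted p = 0.942). The summed signal of the leukocyte markers ranged from 14832 to 16524.5 in control and from 18867 to 20953 in treated channels. PTPRC was the brightest in it (mean log2 signal 13.7), then CD14 (11.8), so the sum mostly reflects PTPRC and not the markers as a set. PTPRC has further probes, which are not given here. The summed signal of the myogenic markers ranged from 233444 to 267580 and from 292243 to 336819, and that of the fibroblast markers from 326509 to 404271 and from 394689 to 468800. Over all 24229 probes tested, 17.1% were called in either direction. The marker counts were not tested against that share. The part of these markers in the results below was not tested.

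Signal decided which members could be tested. A probe entered the test when at least one channel, red or green, exceeded the background clearly on each of the 4 arrays. This held for 16 of the 25 probes, from NFKB1, RELA, NFKBIA, CCL2 and PTGS2. The other 9 probes were those of IL6, IL8 and TNFAIP3 and 1 of the 3 PTGS2 probes. CCL2, a chemokine that draws monocytes, gave scanner signals of 2766 to 6434 in control and 3258 to 9883 in treated channels. NFKBIA gave 493 to 2541 and 558 to 2275, again over its 6 probes. Signals of different probes depend on their sequences and are not compared.

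**Figure D1:**
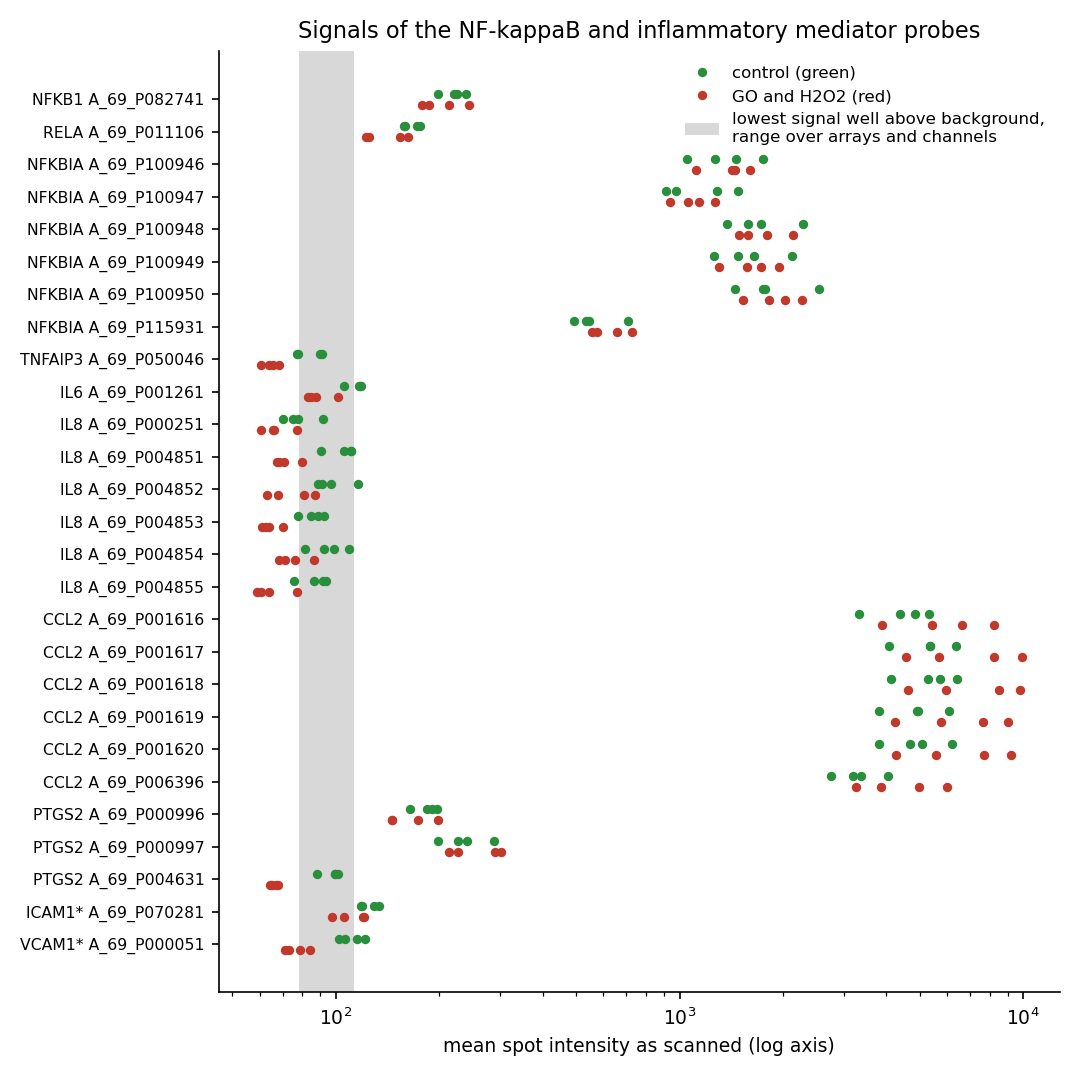
Mean spot intensity as scanned (log axis, no unit) of each member probe in the control (green points) and treated (red points) channel of the 4 arrays. The grey band spans the lowest signals called well above background, 78.1 to 113 over arrays and channels; the IL8, TNFAIP3 and dim PTGS2 probes lie in or near it, while NFKBIA and CCL2 lie far above. An asterisk marks genes whose probe carries another name in the annotation, and levels of different probes are not comparable.

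The ratios are of red over green on a log2 scale after correction within each array. Values above 0 stand for more signal in treated cells, relative to probes of like brightness on that array. Before that correction red exceeded green on all arrays, with a median log2 ratio of gene probes of 0.41, 0.28, 0.39 and 0.12 on arrays 1 to 4. A ratio below 0 therefore means that a probe was lower than probes of like brightness on its array, even where its scanned red signal was the larger. In RNA from whole cultures, fewer cells that express a gene and less of its RNA per cell cannot be told apart.

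Of the 16 member probes tested, 4 were called lower with GO and H2O2 and 0 higher, and all 4 belonged to NFKBIA. Over all 24229 probes tested, 7.59% were called lower and 17.1% in either direction (limma, adjusted p under 0.05). Because the 4 called probes overlap, they stand for 1 target. At an unadjusted p under 0.05 the member count was 5 of 16, the additional probe being the remaining one of the NFKBIA set, where 36.7% of all probes tested lay under that p. The median log2 ratio of the 16 probes was -0.041, against 0.0030 over all probes tested, and 9 of the 16 had a mean below 0.

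NFKB1 encodes p105, the precursor of the p50 subunit. Its probe gave 239, 225, 199 and 220 in control and 244, 214, 186 and 179 in treated channels on arrays 1 to 4. The log2 ratios were -0.028, -0.099, -0.095 and -0.16, below 0 on all 4 arrays. The mean was -0.096 ± 0.054 (SD, n = 4), with a 95% interval of -0.19 to 0.0013 and an adjusted p of 0.140 by limma, so that the difference did not pass the test.

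RELA encodes p65, the subunit that carries the transactivation domain of the common p50/p65 dimer. It read 172, 176, 158 and 159 in control and 162, 154, 125 and 123 in treated channels. Its log2 ratios were -0.045, 0.044, -0.13 and -0.17, below 0 on 3 of 4 arrays and above it on array 2. The mean of -0.075 ± 0.094 (SD, n = 4) was smaller than the spread between arrays, with a 95% interval of -0.19 to 0.040 and an adjusted p of 0.300 by limma.

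NFKBIA encodes IκBα, which binds NF-κB dimers and keeps them out of the nucleus, and which NF-κB itself induces. Its 5 overlapping probes, at chr1:165893465-165893528 on the minus strand, were lower with GO and H2O2 on all 4 arrays. Averaged over these 5 probes the log2 ratio was -0.35, -0.14, -0.20 and -0.21 on arrays 1 to 4, a mean of -0.23. Array 1 had the lowest ratio for each of the 5 probes.

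The probe with the highest mean signal, A_69_P100950, stands for the gene where 1 probe is taken. It read 2541, 1752, 1446 and 1772 in control and 2275, 2033, 1531 and 1817 in treated channels. Its ratios of -0.38, -0.11, -0.19 and -0.11 gave a mean of -0.20 ± 0.12 (SD, n = 4) and an adjusted p of 0.0528 by limma, on the far side of the threshold. With the mean over all 6 tested NFKBIA probes in its place, the gene had -0.19 and an adjusted p of 0.0406. This is the probe with the widest spread among the 5.

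A_69_P100947 had the lowest mean. It read 1475, 977, 910 and 1283 in control and 1267, 1055, 937 and 1137 in treated channels, and its ratios were -0.41, -0.20, -0.24 and -0.32. The mean of -0.29 ± 0.095 (SD, n = 4), or 0.816-fold, had an adjusted p of 0.0194 by limma.

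The remaining 3 lay between. A_69_P100946 read 1752, 1272, 1049 and 1458 in control and 1604, 1425, 1118 and 1454 in treated channels, with ratios of -0.32, -0.15, -0.17 and -0.14 and a mean of -0.19 ± 0.087 (SD, n = 4; limma adjusted p = 0.0380). A_69_P100948 read 2282, 1579, 1374 and 1731 against 2143, 1799, 1485 and 1579, with ratios of -0.30, -0.13, -0.16 and -0.28 and a mean of -0.22 ± 0.085 (SD, n = 4; limma adjusted p = 0.0296). A_69_P100949 read 2126, 1481, 1256 and 1641 against 1943, 1725, 1302 and 1576, with ratios of -0.35, -0.11, -0.22 and -0.21 and a mean of -0.22 ± 0.097 (SD, n = 4; limma adjusted p = 0.0321). On arrays 2 and 3 the scanned red signal of these probes was above the green one, and the ratio fell below 0 through the correction within the array.

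The sixth NFKBIA probe did not follow the other 5. A_69_P115931, printed above, starts at base 370 of the same transcript, where the overlapping set starts at bases 713 to 717, and its 60 bases span 181 bases of genome. It read 706, 535, 493 and 546 in control and 725, 656, 576 and 558 in treated channels. Its log2 ratios were -0.098, 0.081, 0.027 and -0.037, on both sides of 0, with a mean of -0.0067 ± 0.078 (SD, n = 4), a 95% interval of -0.11 to 0.10 and an adjusted p of 0.927 by limma.

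On each array the overlapping set was lower than this probe, by differences in log2 ratio of -0.25, -0.22, -0.22 and -0.18. The mean difference was -0.22 ± 0.032 (SD, n = 4). An exact sign-flip permutation test gave a two-sided p of 0.125, the smallest that 4 arrays allow, and this difference was chosen after the values were seen.

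The NFKBIA calls rested on 4 arrays. Without array 2 the same 4 probes were called, while without array 1, 3 or 4 the number was 0. The count over all probes went the same way (3898 without array 2, and 2, 38 and 0 without arrays 1, 3 and 4). Few calls of any kind were thus made when array 1, 3 or 4 was left out. Centring each array on its median in place of loess left the 4 means between -0.32 and -0.22 with 0 calls.

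**Figure D2:**
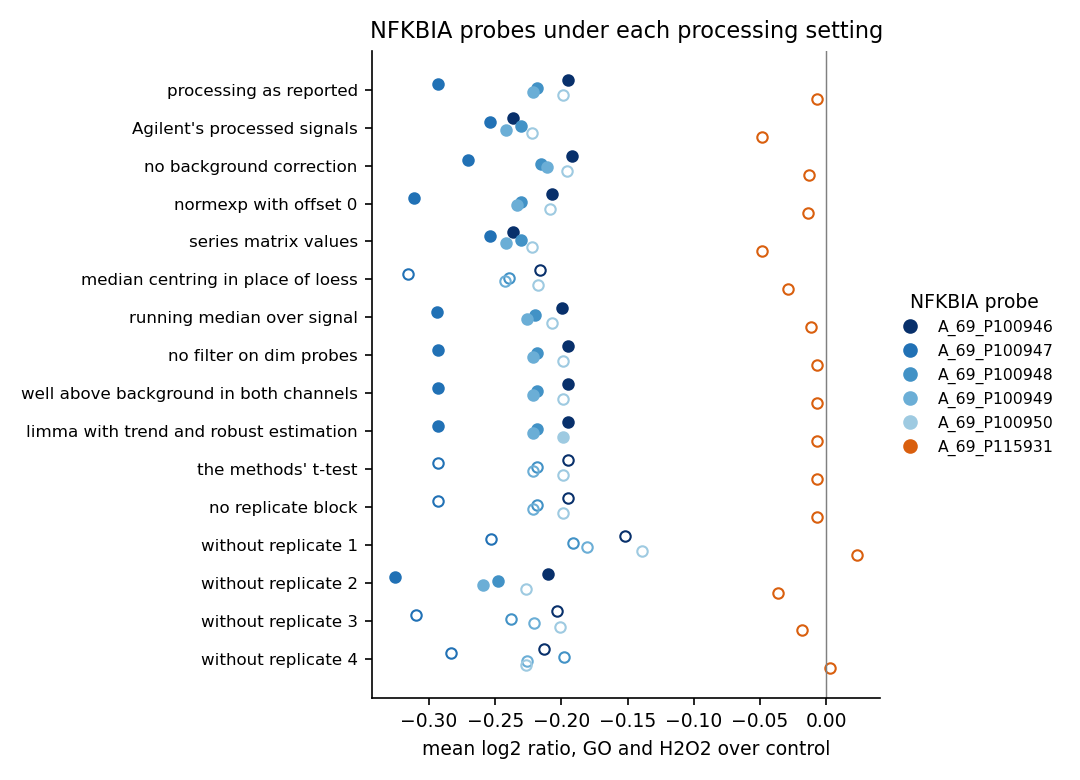
Mean log2 ratio (GO and H2O2 over control) of the 6 NFKBIA probes under each processing setting; filled points have an adjusted p under 0.05. The 5 overlapping probes (blue) stay below 0 in every setting shown, from -0.33 to -0.14, while A_69_P115931 (orange) lies between -0.049 and 0.024 and is never called.

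TNFAIP3 encodes A20, a ubiquitin-editing enzyme that shuts off signalling upstream of the IκB kinase. Its probe read 77.2, 91.3, 90.2 and 77.4 in control and 68.4, 65.8, 60.5 and 63.8 in treated channels. None of these 8 readings was well above background, so no fold is given and no test was made. The log2 ratios of these dim spots were 0.092, 0.094, 0.090 and 0.42, with array 4 apart from the other 3. Scanned red signal was below the green one on all 4 arrays, so the ratios rose above 0 through the corrections.

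IL6, a cytokine that contracting and injured muscle also makes, was at the limit of detection. Its probe read 105, 117, 119 and 118 in control channels, well above background on 3 of 4 arrays, and 82.8, 87.7, 101 and 84.5 in treated channels, above it on 2 of 4. The log2 ratios were -0.074, -0.083, 0.0026 and 0.0049 and did not enter the test.

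IL8 (CXCL8 in current nomenclature), the neutrophil chemokine, had 6 probes with 10 spots, and 0 of the 6 were well above background in all arrays of a channel. For 4 of them no array was above it in either channel. Signals ranged from 70.1 to 116 in control and from 59.1 to 87.0 in treated channels. The probe with 5 spots, A_69_P000251 at chr3:37424174-37424233, had ratios of 0.12, 0.48, 0.090 and 0.14 after averaging its spots. Its single spots ranged from 0.0070 to 0.16 on array 1, from 0.38 to 0.59 on array 2, from -0.040 to 0.20 on array 3 and from -0.061 to 0.31 on array 4, so that array 2 was higher than the rest in every spot.

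The 5 overlapping IL8 probes read the same stretch of RNA, yet their means ran from -0.11 to 0.14. Their single ratios ran from -0.25 to 0.39. These repeated readings near background went in both directions. In Agilent's own processed values, which carry no offset, the mean for A_69_P000251 was 0.94 in place of 0.21 and that for A_69_P004854 was 0.95 in place of 0.0054. No direction is drawn for IL8 or TNFAIP3.

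CCL2 had ratios that differed between arrays more than those of any other tested member, with SDs of 0.22 to 0.29 over the 4 arrays. The 5 overlapping probes, at chr11:37348561-37348624 on the minus strand, and A_69_P006396 gave the same picture. On array 2 all 6 ratios lay between 0.45 and 0.50. On array 1 they lay between 0.021 and 0.10, on array 3 between -0.15 and -0.058, and on array 4 between -0.16 and 0.079.

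For A_69_P001618, with the highest mean signal of the 6, the control channels read 6434, 5284, 4114 and 5717 and the treated channels 8474, 9811, 4634 and 5970. Its ratios of 0.10, 0.48, -0.12 and -0.16 had a mean of 0.076 ± 0.29 (SD, n = 4), with a 95% interval of -0.17 to 0.32 and an adjusted p of 0.628 by limma. A_69_P006396 read 4039, 3365, 2766 and 3205 against 4990, 6012, 3258 and 3861, with a mean of 0.13 ± 0.22 (SD, n = 4), a 95% interval of -0.069 to 0.33 and an adjusted p of 0.300.

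Means of the other 4 CCL2 probes were 0.071 to 0.10, with adjusted p from 0.477 to 0.642 by limma. The positive means came from array 2. Without that array the 5 overlapping probes had means of -0.061 to -0.023, and A_69_P006396 had 0.021. Both CCL2 target stretches gave array 2 as the high one, so the difference between arrays was not that of a single probe.

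PTGS2 encodes cyclooxygenase-2, the inducible enzyme of prostaglandin synthesis. The array annotation also holds the name COX2, which there is the mitochondrial cytochrome oxidase gene and was not counted. The 3 PTGS2 probes lie on the minus strand of chromosome 5. A_69_P000997 at chr5:14454523-14454582 read 288, 226, 199 and 241 in control and 291, 303, 227 and 213 in treated channels. Its ratios of -0.012, 0.32, 0.12 and -0.18 had a mean of 0.062 ± 0.21 (SD, n = 4), a 95% interval of -0.13 to 0.25 and an adjusted p of 0.599 by limma.

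A_69_P000996, which starts at base 3322 of the transcript where the former starts at base 3240, read 196, 184, 164 and 191 against 173, 198, 146 and 146. Its ratios were -0.19, 0.10, -0.12 and -0.17, below 0 on 3 of 4 arrays, with a mean of -0.097 ± 0.14 (SD, n = 4), a 95% interval of -0.24 to 0.042 and an adjusted p of 0.270 by limma. The 2 tested probes had means of opposite sign and neither passed the test. The third, A_69_P004631 at base 1320, read 88.2 to 102 in control and 64.2 to 67.1 in treated channels and was not well above background on any array. Without array 2 the mean of A_69_P000997 was -0.022, and the mean over both tested probes was -0.017 with all arrays.

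ICAM1 and VCAM1 are the endothelial adhesion molecules that bind leukocyte integrins and that NF-κB induces in many cell types. The ICAM1 probe A_69_P070281, on the unplaced sequences of the build, read 129, 134, 119 and 119 in control and 120, 121, 97.6 and 106 in treated channels. Its ratios of 0.022, 0.059, 0.019 and 0.21 were above 0 on all 4 arrays, and the mean of 0.077 ± 0.089 (SD, n = 4) did not pass the test (95% interval -0.035 to 0.19, adjusted p = 0.278 by limma). The scanned red signal was below the green one on all 4 arrays, and the ratios rose above 0 through the corrections. This ICAM1 probe was dim, well above background on 4 arrays in treated and on 3 in control channels. The filter thus selected for a higher treated signal, and no direction is drawn from the ratios. The VCAM1 probe A_69_P000051 at chr5:38439231-38439290 read 106, 122, 115 and 102 against 84.0, 78.9, 73.1 and 71.2, well above background on 3 arrays in control and on 1 in treated channels. Its ratios of -0.14, -0.15, -0.13 and -0.0071 were not tested.

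**Figure D3:**
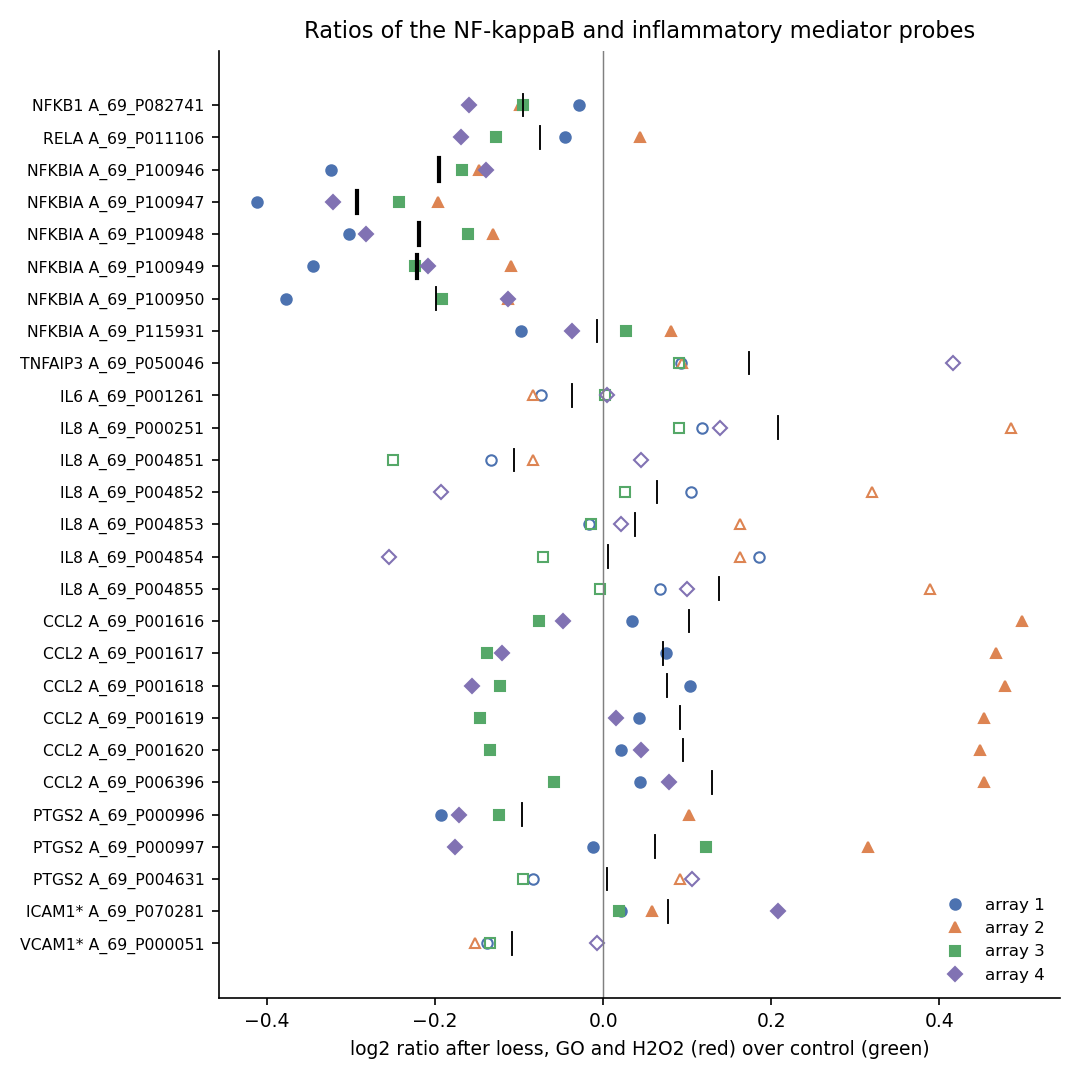
Log2 ratio after loess (GO and H2O2 over control) of each member probe on arrays 1 to 4, with the mean as a vertical bar that is thick where the adjusted p is under 0.05; open symbols are probes too dim to be tested. The 4 called probes are of NFKBIA; array 2 (triangles) lies to the right in 14 of the 16 tested probes of the rule, by most for CCL2. An asterisk marks genes whose probe carries another name in the annotation.

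Array 2 had the highest ratio of the 4 in 14 of the 16 tested member probes (87.5%), whether the mean was above or below 0. Over all 24229 probes tested, array 2 had the highest ratio in 27.9%. The 16 probes hold the overlapping sets of CCL2 and NFKBIA, so that this is a description of fewer targets than probes. The exceptions were NFKB1, highest on array 1, and the NFKBIA probe A_69_P100946, whose ratios on arrays 2 and 4 were -0.15 and -0.14.

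The other genes of the pathway were taken from a list of 126 genes in 7 roles. By their file symbols 98 had a probe and 57 were tested, each by its brightest tested probe. Of these, 7 were called higher and 3 lower, 17.5% in all, against 17.1% of all 13691 gene names tested the same way, and their median log2 ratio was 0.022. The share called thus lay near that of all genes. Without array 2 the number was 5, and without array 1, 3 or 4 it was 0. When both channels had to be well above background on all arrays, 7 of the 10 remained called, since NFKBIZ, CXCL1 and ITGB7 had passed through the channel in which they were higher and were then not tested.

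Upstream, 8 of 19 ligands and receptors were tested and 1 was called. TLR4, the receptor for bacterial lipopolysaccharide that signals through MYD88 to NF-κB, had ratios of 0.35, 0.43, 0.45 and 0.49, all above 0. Its mean was 0.43 ± 0.058 (SD, n = 4), or 1.35-fold, with an adjusted p of 0.0109 by limma.

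Among 24 adaptors and kinases 16 were tested, and 2 were called higher and 0 lower. TAB3, an adaptor of the kinase TAK1, had ratios of 0.47, 0.29, 0.080 and 0.23 and a mean of 0.27 ± 0.16 (SD, n = 4; limma adjusted p = 0.0391). RNF31, the catalytic subunit of the ligase that builds linear ubiquitin chains, had ratios of 0.26, 0.049, 0.23 and 0.25 and a mean of 0.20 ± 0.10 (SD, n = 4; limma adjusted p = 0.0412). In the processed values of Agilent's software its adjusted p was 0.0515.

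Besides NFKB1 and RELA, REL was the Rel subunit tested under its file symbol. The brighter of its 2 tested probes gave -0.022, 0.034, 0.17 and 0.094 and the mean of 0.069 ± 0.083 (SD, n = 4) did not pass the test (limma adjusted p = 0.311). The other REL probe had a mean of opposite sign, -0.058, and the mean over both was 0.0059.

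Of 15 inhibitors and feedback genes 7 were tested, and 2 were called higher. NFKBIZ, which encodes the nuclear protein IκBζ and is itself induced by NF-κB, had ratios of 0.39, 0.48, 0.59 and 0.72. Its mean of 0.54 ± 0.14 (SD, n = 4) had an adjusted p of 0.0125 by limma. This probe was dim, well above background on 4 arrays in treated but on 2 in control channels, so that the filter selected for a higher treated signal, and Agilent's processed values gave a mean of 1.42. OTUD7B, a deubiquitinase also named Cezanne, had a mean of 0.20 ± 0.074 (SD, n = 4; limma adjusted p = 0.0314), with ratios of 0.13, 0.28, 0.25 and 0.15. OTUD7B was higher on all 4 arrays, while no direction is drawn from the NFKBIZ ratios. The 5 overlapping NFKBIA probes were lower on all 4, while the NFKBIA probe A_69_P115931 lay on both sides of 0.

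Of 24 chemokines and cytokines 7 were tested, with 1 called higher and 2 lower. CXCL1, a neutrophil chemokine like IL8, had ratios of 0.13, 0.24, 0.092 and 0.28 and a mean of 0.19 ± 0.089 (SD, n = 4; limma adjusted p = 0.0425). This probe was dim too, well above background on 4 arrays in treated and on 3 in control channels. The filter thus selected for a higher treated signal here as well, and no direction is drawn. In Agilent's processed values the CXCL1 mean was 0.58. IL18, a cytokine made as an inactive precursor, had ratios of -0.096, -0.20, -0.22 and -0.22 and a mean of -0.18 ± 0.058 (SD, n = 4; limma adjusted p = 0.0340). CCL11, an eosinophil chemokine, had ratios of -0.14, -0.35, -0.20 and -0.11 and a mean of -0.20 ± 0.11 (SD, n = 4; limma adjusted p = 0.0441). CCL11 had 5 tested probes, whose means ran from -0.67 to -0.10, and 1 of them was called.

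Among 22 adhesion, prostaglandin and other target genes 13 were tested, and LCN2 was called. LCN2 encodes the iron carrier lipocalin-2, and its ratios of 0.12, 0.26, 0.14 and 0.20 gave a mean of 0.18 ± 0.062 (SD, n = 4; limma adjusted p = 0.0363, and 0.0544 with Agilent's processed values).

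Of 19 receptors of the members 5 were tested, and ITGB7, an integrin chain that pairs with the α4 chain to bind VCAM1, was called lower. Its ratios were -0.21, -0.37, -0.25 and -0.50 and its mean was -0.33 ± 0.13 (SD, n = 4; limma adjusted p = 0.0203). The treated channel of this probe was well above background on no array, while the control channel was above it on all 4. Averaged over the 4 arrays, control signal was 1.26-fold the treated one. For each array the larger of the treated signal and the lowest signal well above background was taken (normalised channel values, open to dye bias). This average lay close to the mean ratio itself, 0.794-fold for treated over control. It is a bound neither for the mean nor for single arrays. The filter selected for a higher control signal. Agilent's processed values gave a mean log2 ratio of -1.23. ITGB1, the other integrin chain that pairs with α4 to bind VCAM1, is named after its values were seen. Its brightest tested probe had the lowest mean of the 57 genes, -0.43 ± 0.35 (SD, n = 4; limma adjusted p = 0.0553), with ratios of -0.58, -0.62, -0.61 and 0.091, so that array 4 lay apart. Of its 5 tested probes, whose overlap was not examined, 4 were called lower, with means over the 5 from -0.43 to -0.23. ITGA4, the α4 chain itself, is also named after its values were seen. Its brightest tested probe had ratios of -0.30, -0.53, 0.26 and 0.11, on both sides of 0. The ITGA4 mean was -0.12 ± 0.37 (SD, n = 4; limma adjusted p = 0.546), and 0 of its 5 tested probes were called.

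**Figure D4:**
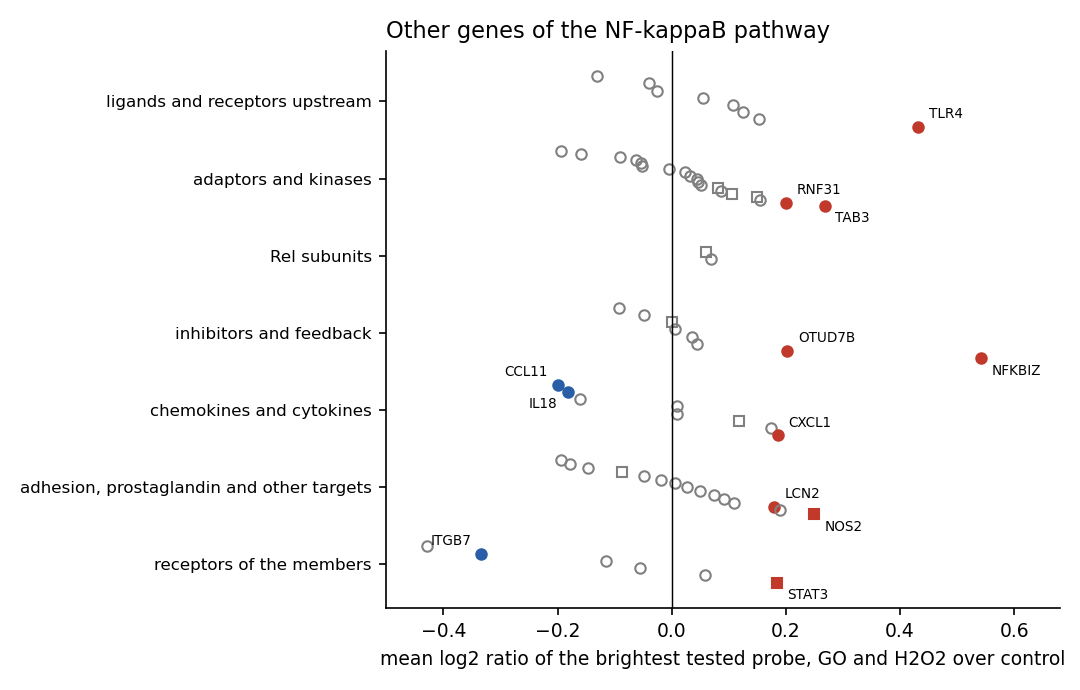
Mean log2 ratio (GO and H2O2 over control) of the brightest tested probe of each other pathway gene, by role; filled points have an adjusted p under 0.05, red for higher and blue for lower, and squares are genes named through the probe description. Called genes lie between -0.33 (ITGB7) and 0.54 (NFKBIZ), and most genes of each role lie near 0.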

How the data were processed

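Spot intensities of 4 two-colour Agilent horse arrays were deposited as extracted by the authors with Agilent Feature Extraction (version 10.10.1.1, build EquCab1, per the file headers). Log10 ratios of the processed channels, deposited in the same files and rescaled to log2, form what is called Agilent's processed values, an alternative. Mean signals were corrected against background medians (normexp, offset 50) and normalised by loess within arrays, with control spots at weight 0. Outlier spots were dropped and spots of a probe averaged. The offset pulls ratios of dim probes towards 0. Mean ratios were tested against 0 with limma 3.58.1 (R 4.3.3, lmFit and eBayes, two-sided), with Benjamini-Hochberg adjustment over 24229 probes at 0.05. The array pairs treated with control RNA in every ratio. Intervals are limma's at 95%. The test was also run on simulated ratios with independent errors. These lack the shared slide and dyes of the real arrays, so the run does not vouch for the calls here.

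Members, lists and tests were chosen with earlier results of these data known. All members are named. Of each pathway role, up to 4 called genes with the smallest adjusted p are named, or else the brightest gene. Names sought through the probe description (22 found) were added after the files were seen. Alternatives covered background correction, normalisation, filter, test, pairing, the choice of probe and leaving out each array. P-values measure the spread between these arrays, which may be technical, and the number of arrays limits precision.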

Additional observations from a re-analysis of the deposited data

Results flagged for a closer look

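In 5 of 38 sets of 4 ratios, 1 array lay apart from the other 3, by a gap, as a share of the range of the set, above Dixon's limit for 4 values. Chance alone gives about 1 in 20. The TNFAIP3 probe A_69_P050046 had a gap of 0.987 of its range, with array 4 at 0.42 and the others at 0.090 to 0.094. For the VCAM1 probe A_69_P000051 the gap was 0.878, with array 4 at -0.0071 against -0.15 to -0.13. The IL8 probe A_69_P000251 had a gap of 0.875, with array 2 at 0.48 against 0.090 to 0.14. These 3 probes were too dim to be tested.

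Among tested probes, A_69_P100946 of NFKBIA had a gap of 0.84, with array 1 at -0.32 against -0.17 to -0.14, and array 1 was also the lowest in the other 4 probes of its overlapping set. RNF31 had a gap of 0.853, with array 2 at 0.049 against 0.23 to 0.26. Without array 2 its mean was 0.25 in place of 0.20 (limma adjusted p = 0.0243), while without array 1, 3 or 4 its adjusted p was 0.149, 0.112 and 0.144.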

How the results depend on the processing

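The 4 called member probes stayed at 4 with no background correction, offset 0, Agilent's processed signals, the identical series matrix values, a running median, no filter and the stricter filter, and were 5 with trend and robust estimation. Median centring, the methods' t-test and dropping the pairing lowered all 3 counts. Median centring in place of loess gave 12 calls over all probes, 0 for members (0 of 16 at an unadjusted p under 0.05, where 6.48% of all probes lay) and 0 for the pathway list. The methods' t-test gave 5, 0 (6 unadjusted, with 28.6% of all probes) and 0. With no replicate block, that is without the pairing of channels by array, the counts were 594, 0 (5 unadjusted, with 22.8%) and 2. Leaving out 1 array gave 0 to 3898 calls over all probes, 0 to 4 for members and 0 to 5 for the pathway list, with 0 over all probes without array 4 (6694 unadjusted).

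Of tested member probes, only uncalled ones turned sign. Leaving out 1 array moved CCL2 from -0.029 to 0.16 (A_69_P001616), -0.061 to 0.14 (A_69_P001617), -0.058 to 0.15 (A_69_P001618), -0.029 to 0.17 (A_69_P001619) and -0.023 to 0.17 (A_69_P001620). NFKBIA A_69_P115931 moved from -0.036 to 0.024 and PTGS2 A_69_P000997 from -0.022 to 0.14, and the mean over the tested PTGS2 probes was -0.017. Untested dim probes changed in size with the background correction (IL8, TNFAIP3, VCAM1), and some in sign: IL8 A_69_P004853 was -0.13 with Agilent's signals and -0.010 with median centring, IL8 A_69_P004854 was -0.053 with offset 0 and -0.030 with median centring, and PTGS2 A_69_P004631 was -0.16 with Agilent's signals, -0.068 with no background correction and -0.057 with median centring. These 3 and IL8 A_69_P004852 (-0.021) were also below 0 without array 2, as were A_69_P004854 without array 1 (-0.054) and A_69_P004631 without array 4 (-0.029). The cause of these changes was not tested. Signal over background, not array number, kept IL6, IL8 and TNFAIP3 out of the test.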

Other observations

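Some pathway genes carry no symbol, or another name, in the array annotation and were found through their descriptions after the files were seen. With them 66 genes of the list were tested, 9 called higher and 3 lower, 18.2% in all, near the 17.1% of all gene names. The 2 added calls were NOS2 and STAT3. NOS2 encodes inducible nitric oxide synthase, an NF-κB target. All 5 of its tested probes were called higher, with means of 0.25 to 0.35, and the brightest had ratios of 0.25, 0.030, 0.39 and 0.33 (limma adjusted p = 0.0431). Further NOS2 probes did not enter the test. STAT3, the transcription factor through which IL6 signals, was called higher in 7 of 8 tested probes, with means of 0.15 to 0.23, and its brightest probe had ratios of 0.12, 0.12, 0.20 and 0.29 (limma adjusted p = 0.0401). Whether the probes of NOS2 or of STAT3 overlap was not examined, so these counts do not stand for separate targets.

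NFKB2, the precursor of the p52 subunit, had a mean of 0.060 ± 0.066 (SD, n = 4; limma adjusted p = 0.340). IKBKB, a catalytic subunit of the IκB kinase, was above 0 on all 4 arrays, with a mean of 0.15 ± 0.054 (SD, n = 4) and an adjusted p of 0.0502 by limma, just outside the threshold. Its probe was dim, well above background on 4 arrays in treated and on 3 in control channels, so the filter selected for a higher treated signal. TRAF6 (adjusted p = 0.223), IRAK1 (0.197), NFKBIE (0.996), IL11 (0.0990) and PTX3 (0.433) were not called.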
